A study of Arabidopsis thaliana with 48 samples.

Results

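The 10 genes described here are root meristem regulators: the PLETHORA transcription factor genes PLT1, PLT2, PLT3 and PLT4, their relatives AINTEGUMENTA-LIKE 5 and 7 (AIL5 and AIL7), the homeobox gene WOX5, and the peptide genes ROOT MERISTEM GROWTH FACTOR 1, 2 and 3 (RGF1, RGF2 and RGF3). They were chosen by locus, and each was taken from the deposited table of 33715 gene entries by its locus code. All 10 were found. AIL7 had too few reads to be tested, so 9 of the 10 are among the 20995 genes tested.

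The data are read counts of ribosome-bound mRNA from roots of 6-day-old Arabidopsis thaliana seedlings. Polysomes that carry a FLAG tag were immunopurified, so each library reads mRNA from the cells in which the promoter of the tag is active. Roots were sampled before treatment (0 h) and after 3 h and 8 h with 100 nM brassinolide (BL), a brassinosteroid hormone. In the Col-0 background the tag was driven by 35S (whole root), pBRN2 (lateral root cap and columella), pGL2 (epidermis), pSCR (endodermis) or pSHR (stele). In 3 further lines the plants carried bri1-116, a mutation of the brassinosteroid receptor gene BRI1, and a BRI1 transgene under pGL2 or pSCR. The names give the promoter of the tag, then the transgene in parentheses, as in pGL2(pGL2BRI1), pSCR(pSCRBRI1) and pGL2(pSCRBRI1). There are 48 libraries, 2 for each of the 24 combinations of 8 lines and 3 times, and the series text calls the 2 biological repetitions. No 3 h or 8 h library without BL is analysed here, so the effect of BL and that of elapsed time cannot be told apart. The SCR promoter is known to be active in the quiescent centre as well as in the endodermis.

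PLETHORA proteins are AP2-type transcription factors whose graded abundance, highest at the root tip, keeps cells in the stem cell and dividing state. WOX5 is transcribed in the quiescent centre, the organizer cells of the stem cell niche, and keeps the columella stem cells undifferentiated. RGF peptides are secreted, need sulfation of a tyrosine by the tyrosylprotein sulfotransferase TPST, are perceived by leucine-rich repeat receptor kinases with SERK co-receptors, and are known to extend the domain of PLETHORA protein. Brassinosteroids are known to change meristem size and the division of quiescent centre cells.

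The coding DNA for the mature peptide of the 3 RGF genes is shown because the peptide is the part of the gene product that acts outside the cell. Each line gives the last 13 codons before the stop codon, 39 bases read 5′ to 3′ on the coding strand from RefSeq (TAIR10.1). The capitals mark the codons for aspartate and for the tyrosine that is sulfated. The stretches lie at chr5:24466534-24466572 (minus strand) for RGF1, chr1:4669184-4669222 (plus strand) for RGF2 and chr2:1276902-1276940 (minus strand) for RGF3.
RGF1: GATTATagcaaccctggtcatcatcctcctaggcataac
RGF2: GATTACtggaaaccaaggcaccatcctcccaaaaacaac
RGF3: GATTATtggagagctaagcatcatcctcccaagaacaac
RGF2 and RGF3 had the same base at 32 of these 39 positions (82.1%), RGF1 and RGF3 at 27 (69.2%) and RGF1 and RGF2 at 26 (66.7%).

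The DNA just before the start of PLT2 and PLT3 is shown because these were the 2 members with the lowest log2 changes after BL. Each line gives the 250 bases before the RefSeq gene start, 5′ to 3′, at chr1:18976926-18977175 for PLT2 and chr5:3315151-3315400 for PLT3, both on the plus strand (TAIR10.1).
PLT2: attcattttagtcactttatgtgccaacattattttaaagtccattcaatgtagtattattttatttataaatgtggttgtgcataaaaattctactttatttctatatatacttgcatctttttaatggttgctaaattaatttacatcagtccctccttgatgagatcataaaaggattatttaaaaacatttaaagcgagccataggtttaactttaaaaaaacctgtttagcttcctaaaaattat
PLT3: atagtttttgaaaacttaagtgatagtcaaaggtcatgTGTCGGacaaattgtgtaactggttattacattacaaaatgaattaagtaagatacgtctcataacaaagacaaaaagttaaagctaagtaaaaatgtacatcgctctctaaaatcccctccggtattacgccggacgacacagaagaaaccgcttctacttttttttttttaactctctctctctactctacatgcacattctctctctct
In windows from 250 bases before to 50 bases after the gene start, 5 motifs were searched on both strands. CGTGTG and CGTGCG, known as brassinosteroid response elements, were in 6.52% and 1.96% of the 27443 promoters of protein-coding genes and in 0 of the 10 members. CACGTG, the G-box, was in 7.68% of promoters and in 0 of the 10 members. TGTCTC, an auxin response element, was in 14.2% of promoters and in 4 members, PLT4, AIL7, RGF1 and RGF3. TGTCGG, a second auxin response element, was in 5.12% of promoters and in 3 members, PLT1, PLT3 and AIL5, and the capitals in the PLT3 line mark it, 212 bases before the start. CGTGTG and CACGTG share letters and can overlap. A match describes letters and is not evidence of binding.

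Total counts ran from 20556381 to 37685541 per library. Levels are given in CPM, counts scaled for library size by edgeR with TMM factors. Differences are log2 fold changes ± SE from the edgeR quasi-likelihood test with Benjamini-Hochberg (BH) adjustment over the 20995 genes, and a gene rose, fell or differed only where the adjusted p was under 0.05. For libraries of different lines at 0 h that did not overlap, the share of all genes with that order was not counted. Marker genes were checked against the labelled tissue. Over the 6 libraries of a line, the 5 root cap markers summed to 2350 to 4070 CPM in pBRN2. The 4 epidermis markers summed to 139 to 405 in pGL2. The 7 endodermis markers summed to 5630 to 12100 in pSCR, and the 7 stele markers to 1430 to 2020 in pSHR. In pBRN2 the epidermis markers stood at 86.8 to 213 CPM, which overlaps pGL2, and the endodermis markers at 295 to 672. In pGL2 the root cap markers stood at 38 to 53.9 CPM and the endodermis markers at 53.1 to 154. The 6 libraries labelled pGL2(pSCRBRI1) went against their label, with epidermis markers at 3.4 to 6.32 CPM and endodermis markers at 4280 to 7050. In pGL2(pGL2BRI1), 3 libraries held 875 to 2130 CPM of endodermis markers against 105 to 156 in the other 3. The first 3 lacked a submitters' note on read length that the other 3 carried, so each time had 1 library of each kind. Green tissue markers stood at 438 CPM in 35S 3 h replicate 1 and 581 in 35S 8 h replicate 2, against 33.9 to 89.1 in the other 35S libraries. In a bulk fraction, fewer cells that express a gene and less mRNA per cell cannot be told apart.

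Before BL the members had separate tissue patterns, and they are described first for the PLETHORA genes. In the pBRN2 fraction PLT3 was higher than in the whole root, and PLT1 (-1.19 ± 0.349, adjusted p = 0.0073, lost without replicate 1 of either line at up to 0.0758) and PLT4 were lower. In the pGL2 fraction PLT1, PLT2, PLT3, PLT4 and AIL5 were all lower. PLT4 was higher in the pSCR and pSHR fractions.

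PLT1 (AT3G20840, chr3:7300675-7303693, TAIR10) and PLT2 (AT1G51190, chr1:18977284-18980618) act redundantly in specifying the stem cell niche. PLT1 stood at 13.1 and 10.1 CPM in the 2 libraries of 35S, 4.70 and 5.46 in pBRN2, 1.89 and 2.95 in pGL2, 7.35 and 17.5 in pSCR, and 8.04 and 7.02 in pSHR. The pGL2 libraries were lowest, and the 2 pSCR libraries lay on either side of the 35S pair. In the order pSCR, 35S, pSHR, pBRN2 and pGL2, the only neighbours that differed with all groups fitted were pBRN2 and pGL2 (log2 difference 1.07 ± 0.368, adjusted p = 0.0164). This call was lost without pBRN2 replicate 2 or pGL2 replicate 1. With the compared groups alone, PLT1 was lower in pSHR than in 35S (-0.64, adjusted p = 0.00867). Among libraries without the note on read length it was higher in pSHR than in pBRN2 (0.64, adjusted p = 0.0368). PLT2 stood at 9.02 and 7.89 CPM in 35S, 9.11 and 8.96 in pBRN2, 3.09 and 3.20 in pGL2, 7.81 and 13.1 in pSCR, and 5.27 and 4.83 in pSHR. Its levels were close in 35S and pBRN2 and lowest in pGL2, and no difference between neighbours in the order pSCR, pBRN2, 35S, pSHR and pGL2 passed with all groups fitted. With the compared groups alone, pSHR was lower than 35S (-0.77, adjusted p = 0.00243) and higher than pGL2 (0.63, adjusted p = 0.0273), and both also passed without the libraries that went against their labels (adjusted p = 0.0368 and 0.0377). Against 35S, both genes were lower in pGL2, PLT1 by -2.26 ± 0.368 (adjusted p = 9.35e-06) and PLT2 by -1.43 ± 0.306 (adjusted p = 0.000308).

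PLT3 (also AIL6, AT5G10510, chr5:3315529-3320008), which acts with PLT1 and PLT2 in root meristem maintenance, had its highest level in the root cap fraction. It stood at 20.4 and 21.3 CPM in pBRN2, 9.13 and 10.9 in 35S, 10.8 and 8.62 in pSHR, 5.37 and 6.68 in pSCR, and 4.06 and 4.02 in pGL2. Both pBRN2 libraries were above all others. The difference from 35S was 1.06 ± 0.338 (adjusted p = 0.0129), and no other neighbours in that order differed. The call was lost without 35S replicate 1 or pBRN2 replicate 2 (highest adjusted p = 0.106).

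PLT4 (also BABY BOOM, AT5G17430, chr5:5742542-5745568) had its highest levels in the inner tissues. It stood at 7.43 and 6.43 CPM in pSHR, 3.82 and 5.32 in pSCR, 2.03 and 1.85 in 35S, 0.579 and 0.843 in pBRN2, and 0.550 and 0.492 in pGL2. The pSHR and pSCR libraries were all above 35S, and pBRN2 and pGL2 all below. Against 35S the log2 difference was 1.83 ± 0.449 in pSHR (adjusted p = 0.00204), 1.23 ± 0.452 in pSCR (adjusted p = 0.0337), -1.45 ± 0.507 in pBRN2 (adjusted p = 0.0223) and -1.89 ± 0.525 in pGL2 (adjusted p = 0.00377). The difference between pSHR and pSCR did not pass (0.60 ± 0.434), nor did that between pBRN2 and pGL2 (0.44 ± 0.576). The pSCR call was lost without either 35S replicate or pSCR replicate 2 (highest adjusted p = 0.171), and the pBRN2 call without either 35S replicate or pBRN2 replicate 1 (highest adjusted p = 0.160).

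AIL5 (AT5G57390, chr5:23253459-23256437), known as PLT5 and linked to lateral organ initiation, stood at 2.57 and 4.62 CPM in pBRN2, 1.77 and 1.53 in 35S, 1.19 and 1.94 in pSHR, 0.413 and 0.287 in pGL2, and 0.420 and 0.187 in pSCR. It was lower than 35S in pGL2 (-2.22 ± 0.556, adjusted p = 0.00153) and pSCR (-2.41 ± 0.580, adjusted p = 0.00139). In pBRN2 the difference of 1.11 ± 0.469 did not pass with TMM scaling (adjusted p = 0.0571) and passed with RLE scaling (adjusted p = 0.0402), by DESeq2 (0.0404) and with the compared groups alone (0.025). AIL7 (AT5G65510, chr5:26185829-26189413) had 0 to 11 counts per library. In pBRN2 at 3 h it had 0 counts in both libraries, and 3 counts, the limit that a count of 0 allows, correspond to 0.12 and 0.122 CPM there, for counting error only.

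WOX5 (AT3G11260, chr3:3527575-3528433) was highest in the pSCR fraction. It stood at 6.34 and 6.91 CPM in pSCR, 2.65 and 2.52 in pSHR, 0.730 and 0.846 in 35S, 0.579 and 0.723 in pBRN2, and 0.275 and 0.451 in pGL2. The pSCR pair and the pSHR pair each stood apart from the rest. The difference from 35S was 3.07 ± 0.577 in pSCR (adjusted p = 8.68e-05) and 1.71 ± 0.574 in pSHR (adjusted p = 0.0252), and pSCR and pSHR differed by 1.35 ± 0.521 (adjusted p = 0.0388). Leaving out any 1 of the 4 libraries compared ended the pSHR call (adjusted p from 0.0605 to 0.138) and the call between pSCR and pSHR (0.107 to 0.155), while the pSCR call against 35S and all the directions held. Per kilobase of exon, which allows levels of different genes to be compared, WOX5 in pSCR stood at 8.83 RPKM against 5.80 for PLT1, 4.90 for PLT2, 2.28 for PLT3 and 2.32 for PLT4.

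Among the peptide genes, RGF2 (AT1G13620, chr1:4668443-4669471) and RGF3 (AT2G04025, chr2:1276777-1277734) were highest in the whole root. RGF2 stood at 39.2 and 32.7 CPM in 35S, 6.69 and 5.02 in pBRN2, 0.798 and 1.54 in pSCR, 0.516 and 0.697 in pGL2, and 0.110 and 0.400 in pSHR. The 35S libraries lay above every tissue fraction, and pBRN2 above the other 3. RGF3 stood at 64.5 and 81.2 CPM in 35S, 36.7 and 25.9 in pBRN2, 15.9 and 17.9 in pSCR, 2.79 and 5.11 in pSHR, and 1.75 and 2.05 in pGL2. No line overlapped another in RGF3, but the difference between pBRN2 and pSCR (0.89 ± 0.393) did not pass with TMM scaling (adjusted p = 0.0561). It passed with RLE scaling (adjusted p = 0.0476), by DESeq2 (0.0458) and with the compared groups alone (0.03). Against 35S, RGF2 was lower by -2.62 ± 0.515 in pBRN2, -4.95 ± 0.598 in pSCR, -5.89 ± 0.635 in pGL2 and -7.14 ± 0.687 in pSHR, with adjusted p from 1.13e-09 to 0.000181. RGF3 was lower by -1.22 ± 0.391 in pBRN2, -2.11 ± 0.403 in pSCR, -4.21 ± 0.445 in pSHR and -5.26 ± 0.478 in pGL2, with adjusted p from 6.53e-10 to 0.0132. The pBRN2 difference of RGF3 was lost without 35S replicate 2 or pBRN2 replicate 2 (highest adjusted p = 0.124). In RPKM, RGF3 at 102 and RGF2 at 49.9 in 35S were above the other 8 members, of which PLT1 was highest at 5.41.

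RGF1 (AT5G60810, chr5:24466531-24466961, an entry of the coding span only) had few reads, with 0 to 78 counts per library. Before BL its level was 0.294 and 1.07 CPM in pSCR, 0.339 and 0.345 in 35S, 0.221 and 0.431 in pSHR, 0.362 and 0.201 in pBRN2, and 0.0688 and 0.0820 in pGL2. The pGL2 pair was lowest and the pSCR pair spanned a wide range. No difference from 35S passed with all groups fitted, and pGL2 was lower with the compared groups alone (-2.08, adjusted p = 0.0126) and without the libraries that went against their labels (-2.14, adjusted p = 0.0448). pSCR and pGL2 differed by 3.10 ± 0.913 (adjusted p = 0.00585), which was lost without pSCR replicate 2 or pGL2 replicate 1 (highest adjusted p = 0.197). In pSCR at 0 h, replicate 2 was above replicate 1 in every member but AIL5 and AIL7, and also in the summed level of 10 mitotic genes (315 against 192 CPM); the part of that difference in the results was not tested.

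**Figure D1:**
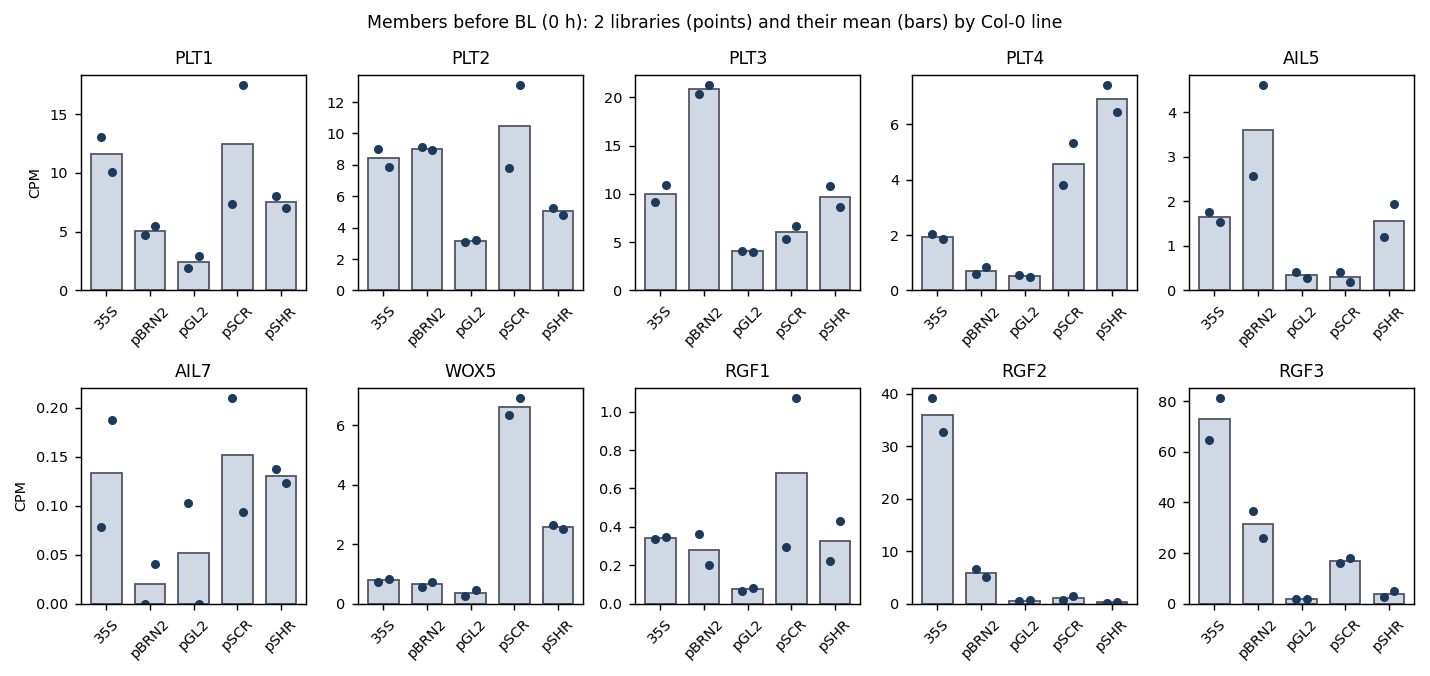
Level of each of the 10 members before BL in CPM (linear axis from 0, a separate scale for each gene) by Col-0 line, with the 2 libraries as points and their mean as a bar. PLT3 peaks in pBRN2, PLT4 in pSHR, WOX5 in pSCR, and RGF2 and RGF3 in 35S, while pGL2 is lowest or next to lowest for all 10.

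Counted over the 9 members tested, 1 was higher and 4 lower in pBRN2 than in 35S, where 41.0% of all genes differed. In pGL2, 0 were higher and 7 lower, against 48.9% of all genes that differed and 25.9% that were lower. In pSCR, 2 were higher and 3 lower, against 34.4% of genes, and in pSHR 2 were higher and 2 lower, against 26.6%. Between pairs of tissue fractions, 0 were higher and 6 lower in pGL2 than in pBRN2 (48.7% of genes differed), 3 higher and 3 lower in pSCR than in pBRN2 (54.4%), and 2 higher and 5 lower in pSHR than in pBRN2 (58.0%). In pSCR 6 were higher and 0 lower than in pGL2 (45.9%), in pSHR 6 were higher and 0 lower than in pGL2 (63.4%), and in pSHR 1 was higher and 4 lower than in pSCR (39.3%). RGF3, 1 of the 6 in pSHR against pGL2 (1.05), was lost under 8 of 13 alternatives (0.60 to 1.48, highest adjusted p = 0.337). The median log2 difference of the 9 was -0.27, -2.13, 0.10 and -0.09 in the 4 lines, beside -0.14, -0.12, -0.05 and 0.03 over all genes. Markers of dividing cells differed in the same fractions. Of 10 mitotic genes, 7 were lower in pGL2, with CDKB2;1, a plant-specific mitotic kinase, at -1.74 ± 0.263, while 4 were higher and 1 lower in pSHR. Their part in the members' levels was not tested.

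Other genes of the peptide pathway followed their own patterns at 0 h. Among the 6 other RGF genes tested, RGF7 was higher in pGL2 (2.35 ± 0.226) and lower in pBRN2 (-2.03 ± 0.230), pSCR (-3.44 ± 0.252) and pSHR (-4.52 ± 0.266). RGF4 and RGF5 were higher in pSCR (1.56 ± 0.332 and 1.58 ± 0.546). Of 18 genes for peptide processing, reception and signalling, 7 were higher and 0 lower in pSCR, where 34.4% of all genes differed, among them the leucine-rich repeat receptor kinase genes AT5G48940 (1.15 ± 0.211) and AT4G26540 (0.75 ± 0.175) and the protease gene SBT6.1 (0.79 ± 0.232). In pBRN2, where 41.0% of all genes differed, 3 of the 18 were higher, among them the receptor kinase gene AT1G34110 (1.23 ± 0.278), and 3 were lower. In pGL2, where 48.9% differed, 6 were higher, among them the co-receptor gene BAK1 (1.22 ± 0.153), and 3 were lower, among them the co-receptor gene SERK2 (-1.05 ± 0.399). In pSHR, where 26.6% differed, 3 were higher and 2 lower.

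Among the other AIL and WOX genes, 6 of 16 had enough reads to be tested. WOX4, a homeobox gene of the cambium, was lower than in 35S in all 4 fractions, from -5.38 ± 0.754 in pGL2 to -1.62 ± 0.542 in pSHR. ANT, the founding member of the AIL family, was lower in pBRN2, pGL2 and pSCR (-3.63 ± 0.651, -3.46 ± 0.641 and -3.81 ± 0.674). Of 19 partners of the stem cell niche, 17 were tested. In pSCR, where 34.4% of all genes differed, 5 were higher, with SCR itself at 3.36 ± 0.792 and the zinc finger genes WIP5 and WIP4, which act in the initiation of the root meristem, at 3.13 ± 0.671 and 2.79 ± 0.674, and 3 were lower, with the DOF factor gene CDF4 at -4.54 ± 0.345. In pGL2 (48.9% of all genes), 3 were higher and 7 lower, with the WIP gene NTT at -3.80 ± 0.537, and in pBRN2 (41.0%), 2 were higher and 3 lower. In pSHR (26.6%), 1 was higher, SHR (2.39 ± 0.600), whose promoter drives the tag there, and 4 were lower.

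After BL, 5 of the 9 members tested fell on average over the 5 Col-0 lines at 3 h and 5 fell at 8 h, and 0 rose. They were PLT1, PLT2, PLT3, PLT4 and RGF3 at both times. Over all genes, 6.51% fell at 3 h and 5.17% at 8 h, and 11.6% and 9.63% changed in either direction. PLT3 and PLT2 had the lowest values, with mean log2 changes of -1.49 ± 0.161 and -1.19 ± 0.138 at 3 h and -1.50 ± 0.161 and -1.28 ± 0.139 at 8 h (adjusted p from 1.96e-07 to 7.29e-07). The median change of the 9 members was -0.64 at 3 h and -0.70 at 8 h, beside 0.03 and 0.02 over all genes.

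PLT3 was lower after BL in every Col-0 line. In 35S it went from 9.13 and 10.9 CPM at 0 h to 2.05 and 4.18 at 3 h and 3.33 and 1.64 at 8 h. In pBRN2, where it was highest, it went from 20.4 and 21.3 to 10.8 and 10.2 and then 10.3 and 10.1. In each of these lines both BL pairs lay below the 0 h pair. In pGL2 it went from 4.06 and 4.02 to 1.45 and 1.03 and then 1.35 and 0.598. The epidermis markers of the same pGL2 libraries went from 208 and 139 CPM at 0 h to 341 and 331 at 3 h and 390 and 405 at 8 h, and their part in the PLT2 and PLT3 values of that line was not tested. In pSCR it went from 5.37 and 6.68 to 2.03 and 2.28 and then 2.24 and 2.69, and in pSHR from 10.8 and 8.62 to 2.35 and 3.85 and then 4.70 and 4.07. In all 10 comparisons of a BL time with 0 h, both BL libraries were below both 0 h libraries, a pattern shared with PLT2 and found for 0.276% of all genes tested. PLT4 had it in 9 comparisons and PLT1 and RGF3 in 8, and 1.82% of genes had it in 8 or more. The 3 h and 8 h comparisons of a line share the 0 h libraries.

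PLT2 had the same pattern. In 35S it went from 9.02 and 7.89 CPM to 4.07 and 4.68 at 3 h and 3.41 and 3.06 at 8 h. In pSCR it went from 7.81 and 13.1 to 2.84 and 2.74 and then 3.26 and 3.45. All 4 BL libraries of each line were below both 0 h libraries. In pGL2 it went from 3.09 and 3.20 to 1.34 and 2.07 and then 1.11 and 0.957, in pSHR from 5.27 and 4.83 to 1.53 and 2.26 and then 2.42 and 2.03, and in pBRN2 from 9.11 and 8.96 to 4.95 and 5.38 and then 6.57 and 5.40. In pBRN2 the 3 h change was -0.81 ± 0.299, which did not pass (adjusted p = 0.223). The endodermis markers of the pSCR libraries went from 5630 and 6990 CPM at 0 h to 7450 and 8690 at 3 h. At 8 h they stood at 10700 and 12100, and their part in the PLT2 and PLT3 values of pSCR was not tested.

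Within single lines, where few genes passed, 8 member tests passed by edgeR with all groups fitted, all of PLT2 or PLT3 and all lower. PLT3 fell in 35S at 3 h (-1.67 ± 0.351, adjusted p = 0.0280) and 8 h (-2.01 ± 0.357, adjusted p = 0.00443) and in pGL2 at 3 h (-1.69 ± 0.388, adjusted p = 0.0208) and 8 h (-2.05 ± 0.400, adjusted p = 0.00300). PLT2 fell in 35S at 8 h (-1.39 ± 0.301, adjusted p = 0.0269), in pGL2 at 8 h (-1.60 ± 0.344, adjusted p = 0.00661) and in pSCR at 3 h (-1.91 ± 0.310, adjusted p = 0.00466) and 8 h (-1.64 ± 0.306, adjusted p = 0.0175). Of all genes, 0.167% and 0.262% fell in 35S at 3 h and 8 h, 0.486% and 2.03% in pGL2, and 0.0286% and 0.0572% in pSCR. In either direction 0.310% and 0.429% changed in 35S, 0.981% and 3.87% in pGL2, and 0.0429% and 0.0667% in pSCR. In pBRN2 and pSHR no member passed by edgeR with all groups fitted, where 0.915% and 1.12% of genes changed in pBRN2 and 0.0191% at each time in pSHR. PLT3 in pSHR at 3 h was at -1.64 ± 0.350 (adjusted p = 0.0965) by edgeR, and PLT2 at -1.41 ± 0.309 (adjusted p = 0.107). Both passed by DESeq2 (adjusted p = 0.00414 for PLT3 and 0.00523 for PLT2), and PLT3 passed with the compared groups alone at 3 h and 8 h (adjusted p = 0.0386 and 0.0478). By DESeq2, RGF3 in pSHR at 8 h (-1.88, adjusted p = 0.0461) and PLT3 in pSCR at 3 h (-1.48, adjusted p = 0.0488) also passed. The differences of the fold changes were tested for each tissue line against 35S, and 0 of the 9 members passed at either time, by edgeR or by DESeq2, where at most 0.0143% of all genes passed by edgeR. At an unadjusted p under 0.05 there were 3 of these member tests, PLT1 in pBRN2 at 8 h (1.01 ± 0.489, adjusted p = 0.724), PLT2 in pSCR at 3 h (-0.96 ± 0.424, adjusted p = 1.00) and RGF3 in pBRN2 at 8 h (1.36 ± 0.548, adjusted p = 0.671).

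Each of the 8 single-line calls rested on few libraries. All were lost without at least 1 of the 4 libraries compared, and leaving out 1 library in turn kept the direction. With only the compared groups fitted, the 3 pGL2 calls held (adjusted p from 0.00654 to 0.0292) and the 5 in 35S and pSCR were lost (adjusted p from 0.136 to 1.00). The PLT2 call in pSCR at 8 h was also lost with a term for the read note (adjusted p = 0.0651). Every pSCR library carries the note, so the term cannot adjust this comparison for it. The PLT3 change in 35S then ran from -2.30 to -1.22 at 3 h (lost without either 0 h replicate or 3 h replicate 1, highest adjusted p = 0.415) and from -2.61 to -1.57 at 8 h (lost without 0 h replicate 2 or 8 h replicate 2, highest adjusted p = 0.385). The 35S libraries with high green tissue markers, 3 h replicate 1 and 8 h replicate 2, were also the lower of their pair in PLT3 and in root cap markers, which stood at 392 and 380 CPM at 0 h, 242 and 340 at 3 h and 301 and 164 at 8 h. The part of either marker list in the 35S values was not tested. The PLT3 change in pGL2 ran from -1.96 to -1.48 at 3 h (lost without any of the 4) and from -2.75 to -1.57 at 8 h (lost without 8 h replicate 2, adjusted p = 0.164). The PLT2 change ran from -1.47 to -1.28 in 35S at 8 h (lost without any of the 4), from -1.71 to -1.50 in pGL2 at 8 h (lost without 0 h replicate 2 or 8 h replicate 2), from -2.22 to -1.50 in pSCR at 3 h (lost without 0 h replicate 2 or either 3 h replicate) and from -1.96 to -1.24 in pSCR at 8 h (lost without 0 h replicate 2 or either 8 h replicate). In pGL2, 1 library of each time carried a submitters' note on read length and 1 did not. Among noted libraries alone PLT3 changed by -1.97 at 3 h and -1.55 at 8 h, and among the others by -1.49 and -2.73, with 1 library on each side. The mean changes of PLT2 and PLT3 over the 5 lines passed at both times without any 1 library.

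**Figure D2:**
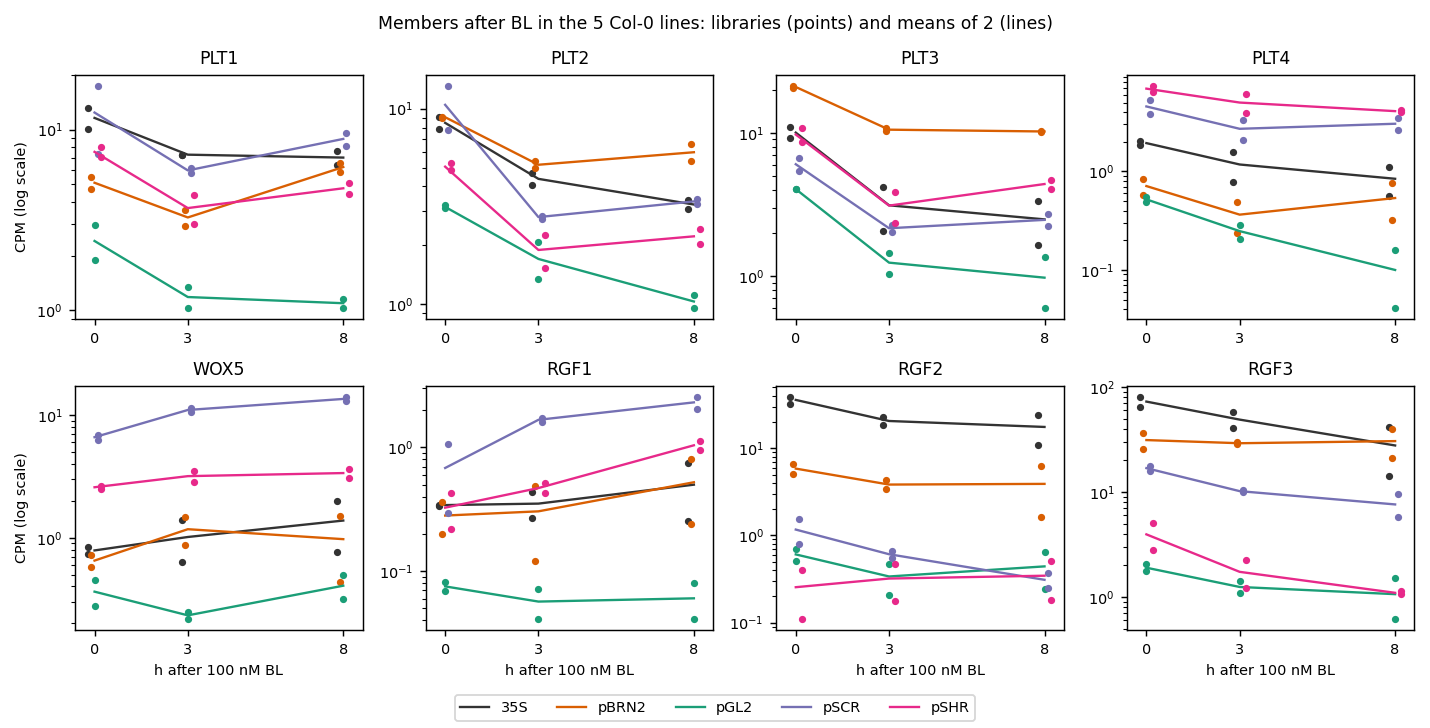
Level in CPM (log axis) at 0, 3 and 8 h of BL for 8 members, with libraries as points and the mean of 2 libraries as a line for each Col-0 line. PLT2 and PLT3 are below their 0 h level in all 5 lines at both times, and WOX5 and RGF1 in pSCR are above theirs. Of these changes in single lines 8 passed by edgeR with all groups fitted, all of PLT2 or PLT3.

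PLT1 and PLT4 also fell on average over the 5 lines. PLT1 changed by -0.88 ± 0.161 on average at 3 h (adjusted p = 0.000597) and by -0.54 ± 0.160 at 8 h (adjusted p = 0.0283). In pBRN2 its 8 h libraries, at 5.85 and 6.56 CPM, were above the 0 h libraries, at 4.70 and 5.46. In the other 4 lines the mean was below 0 h at both times. The 8 h mean was lost without any 1 of 9 of the 20 libraries (highest adjusted p = 0.119). PLT4 changed by -0.78 ± 0.238 at 3 h (adjusted p = 0.0303) and -1.04 ± 0.250 at 8 h (adjusted p = 0.00761). Its counts were low in pBRN2 and pGL2, where the 8 h libraries of pGL2 stood at 0.0411 and 0.159 CPM against 0.550 and 0.492 at 0 h. The 3 h mean of PLT4 was lost without any 1 of 10 of the 20 libraries (highest adjusted p = 0.0778). AIL5 was at -0.26 ± 0.249 and -0.11 ± 0.250 (adjusted p = 0.561 and 0.845), with 95% intervals from -0.77 to 0.25 and from -0.62 to 0.40.

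RGF3 changed by -0.64 ± 0.187 on average at 3 h (adjusted p = 0.0260) and by -1.05 ± 0.191 at 8 h (adjusted p = 0.000579). In 35S it went from 64.5 and 81.2 CPM to 40.4 and 57.7 at 3 h and 41.3 and 14.3 at 8 h, and in pSHR from 2.79 and 5.11 to 1.23 and 2.24 and then 1.13 and 1.06. In pBRN2 it went from 36.7 and 25.9 to 30.0 and 28.4 and then 39.9 and 21.3. The 8 h libraries were below both 0 h libraries in 35S and pSHR and overlapped them in pBRN2. In 35S the lower library at each BL time was the one with high green tissue markers and the lower root cap markers (242 CPM at 3 h and 164 at 8 h), whose part was not tested. Without it the 35S change was -0.30 at 3 h and -0.80 at 8 h, and the mean change -0.58 (adjusted p = 0.0556) and -0.93 (adjusted p = 0.00114). The 3 h mean was lost without any 1 of 8 of the 20 libraries (highest adjusted p = 0.0846). RGF2 was at -0.55 ± 0.292 and -0.70 ± 0.296 and did not pass (adjusted p = 0.227 and 0.133), except at 8 h without pBRN2 8 h replicate 1 (-0.95, adjusted p = 0.0273).

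WOX5 and RGF1 had positive mean changes that did not pass. WOX5 was at 0.34 ± 0.293 at 3 h and 0.61 ± 0.279 at 8 h (adjusted p = 0.510 and 0.166), and RGF1 at 0.33 ± 0.407 and 0.93 ± 0.405 (adjusted p = 0.665 and 0.147). In pSCR, WOX5 went from 6.34 and 6.91 CPM at 0 h to 10.7 and 11.4 at 3 h and 14.2 and 13 at 8 h. RGF1 went in the same line from 0.294 and 1.07 to 1.61 and 1.73 and then 2.05 and 2.57. Both BL pairs lay above the 0 h pair for both genes, an order whose share over all genes was not counted. Over the 10 Col-0 comparisons WOX5 had it in 5 and RGF1 in 3, and WOX5 had the reverse order in 1. At 8 h the pSCR changes were 1.04 ± 0.50 for WOX5 (adjusted p = 0.699) and 1.76 ± 0.633 for RGF1 (adjusted p = 0.508). The endodermis markers also moved in pSCR, from 5630 and 6990 CPM at 0 h to 10700 and 12100 at 8 h, and their part in these values was not tested.

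**Figure D3:**
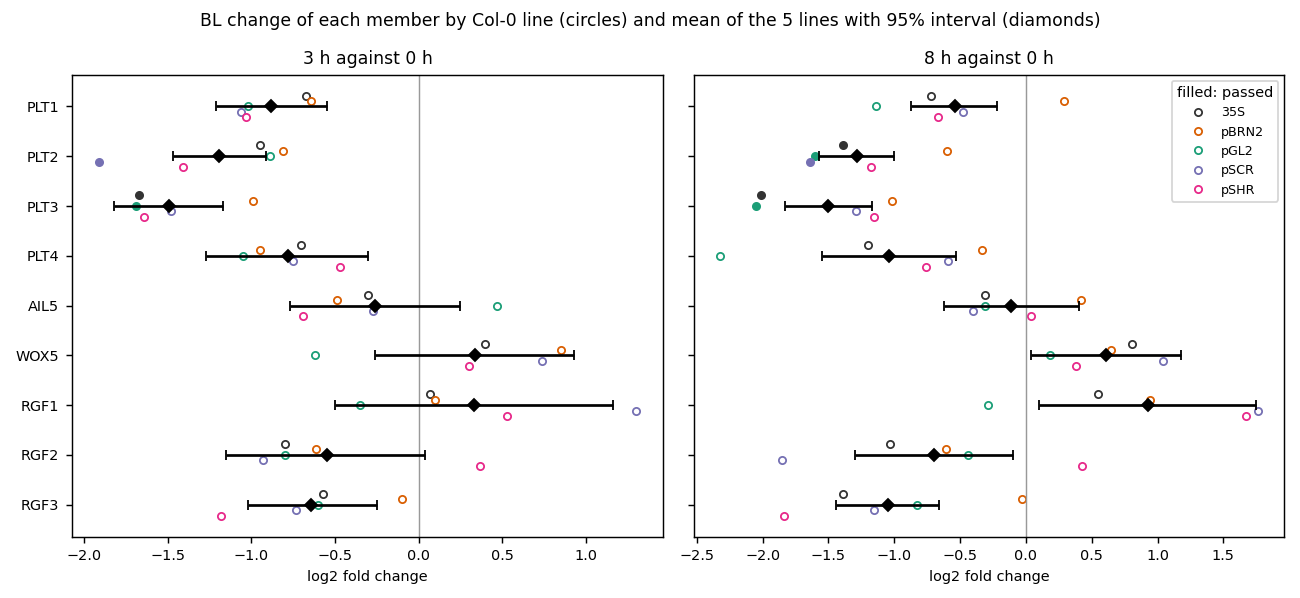
Log2 fold change after 3 h and 8 h of BL against 0 h for the 9 members tested, by Col-0 line (circles, filled where the edgeR test passed) and as the mean of the 5 lines (diamonds with 95% intervals). The intervals of PLT1, PLT2, PLT3, PLT4 and RGF3 lie below 0 at both times, and those of AIL5 cross 0. The intervals are not adjusted for the number of genes. Those of WOX5, RGF1 and RGF2 at 8 h also exclude 0, though these changes did not pass.

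Mitotic genes are given beside the members because the members act in dividing tissue. On average over the 5 lines, 4 of the 10 fell at 3 h, CYCB1;2 (-0.41 ± 0.118), CDKB1;2 (-0.41 ± 0.136), CDKB2;2 (-0.37 ± 0.118) and CDKB2;1 (-0.36 ± 0.115), and 0 changed at 8 h. Their summed level ran from 124 to 435 CPM over the 10 Col-0 libraries at 0 h, from 101 to 390 at 3 h and from 114 to 455 at 8 h. These ranges pool the 5 lines. From 0 h to 3 h the sum went from 303 and 292 to 191 and 220 in 35S. In pBRN2 it went from 208 and 233 to 146 and 203, and in pGL2 from 124 and 143 to 101 and 114. In pSHR it went from 425 and 435 to 390 and 377. In pSCR, at 192 and 315 and then 146 and 243, the pairs overlapped. Over all genes, 6.51% fell at 3 h and 9.63% changed in either direction at 8 h. The median change of the mitotic genes was -0.37 at 3 h and -0.06 at 8 h. The part of these changes in those of the members was not tested.

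Of the 17 niche partners tested, MYB56, a MYB factor also known as BRAVO that restrains division of the quiescent centre, fell at both times (-1.47 ± 0.197 and -1.10 ± 0.194, adjusted p = 1.04e-05 and 0.000397). The cyclin gene CYCD3;3 also fell at both (-0.38 ± 0.122 and -0.40 ± 0.122), WIP5 fell at 3 h (-2.15 ± 0.652), and HAM1, a GRAS factor gene, rose at 3 h (0.46 ± 0.0907). Among the 6 other AIL and WOX genes, WOX12 fell at both times (-1.15 ± 0.218 and -0.92 ± 0.216). Among the 6 other RGF genes, RGF4 fell at both (-0.47 ± 0.151 and -0.50 ± 0.151). Of the 18 genes of peptide processing and reception, 3 rose at 3 h, the receptor kinase genes AT3G24240 (0.38 ± 0.101) and AT5G56040 (0.32 ± 0.0900) and the kinase gene MPK3 (0.31 ± 0.0875). At 8 h 1 rose, the receptor kinase gene AT4G26540 (0.30 ± 0.0783), and 1 fell, the PLATZ factor gene AT2G12646 (-0.68 ± 0.139). Over all genes, 11.6% changed in either direction at 3 h and 9.63% at 8 h. The median changes of the 18 genes were 0.10 and 0.02, those of the other 6 RGF genes 0.05 and 0.15, and those of the niche partners 0.10 and -0.02.

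In the plants with BRI1 restored in 1 tissue, PLT2 differed in the endodermal line. Before BL it stood at 2.27 and 3.59 CPM in pSCR(pSCRBRI1) against 7.81 and 13.1 in pSCR, a log2 difference of -1.83 ± 0.310 (adjusted p = 0.000413). The pairs did not overlap. By edgeR it was the only 1 of 9 members to pass, where 2.99% of genes differed. PLT3 stood at 2.78 and 2.58 CPM against 5.37 and 6.68, a difference of -1.16 ± 0.361 that did not pass by edgeR (adjusted p = 0.0753). It passed by DESeq2 (adjusted p = 0.0333) and in edgeR with a term for the read note (-1.26, adjusted p = 0.0342). That term rests only on the lines in which the note varies, 1 of them pGL2(pGL2BRI1). There the endodermis markers stood at 875 to 2130 CPM without the note and 105 to 156 with it. The term therefore cannot separate the note from these markers in that line. The PLT2 call held with any 1 library left out and was lost when only these 4 libraries were fitted (adjusted p = 0.0743). Among noted libraries alone, with 1 library of pSCR(pSCRBRI1), PLT2 differed by -2.21.

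After BL, 0 members of pSCR(pSCRBRI1) passed by edgeR at either time, with 1 at an unadjusted p under 0.05 at each. Over all genes 0% passed at either time by edgeR, with 925 genes at 3 h and 528 at 8 h at an unadjusted p under 0.05, and DESeq2 called 19 genes at 3 h and 5 at 8 h. PLT2 stood at 2.20 and 2.87 CPM at 3 h and 3.24 and 2.11 at 8 h, changes of -0.21 ± 0.315 and -0.14 ± 0.316. These libraries overlapped the 0 h pair. The pSCR libraries after BL ran from 2.74 to 3.45 CPM. The PLT2 change in this line exceeded that in pSCR by 1.70 ± 0.439 at 3 h (95% interval 0.80 to 2.59) and by 1.5 ± 0.438 at 8 h (0.61 to 2.40), and neither difference passed after adjustment over all genes (adjusted p = 1.00 for both). PLT3 was at -0.98 ± 0.385 at 3 h and -0.96 ± 0.388 at 8 h (adjusted p = 0.999 and 1.00). WOX5 stood at 10.2 and 8.80 CPM at 0 h, 11.9 and 15.5 at 3 h and 11.8 and 12.2 at 8 h.

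The libraries labelled pGL2(pSCRBRI1), whose markers are endodermal, differed from pGL2 in 6 members before BL, all higher, where 47.9% of genes differed. WOX5 was at 6.05 and 4.72 CPM against 0.275 and 0.451 in pGL2 (3.90 ± 0.652), PLT4 at 4.83 and 5.30 against 0.550 and 0.492 (3.27 ± 0.520), and RGF3 at 10.1 and 12 against 1.75 and 2.05 (2.54 ± 0.443). PLT1, PLT2 and RGF1 were the other 3, of which RGF1 was lost without either pGL2 replicate (highest adjusted p = 0.0755). Against pSCR, no member passed, where 0.972% of genes differed. Against pSCR(pSCRBRI1), PLT2 was higher, at 7.63 and 9.91 CPM (1.58 ± 0.307, adjusted p = 0.00153, lost without pSCR(pSCRBRI1) replicate 1 at an adjusted p of 0.0982), where 3.68% of genes differed. After BL, PLT2 stood at 7.42 and 11.9 CPM at 3 h and 7.61 and 7.96 at 8 h, and PLT3 at 5.04 and 6.81 and then 6.69 and 4.85 from 4.74 and 6.80. The BL and 0 h libraries overlapped, and the PLT3 changes were 0.04 ± 0.345 (95% interval -0.67 to 0.74) and 0.00 ± 0.344 (-0.70 to 0.70). No member passed at either time, where 0.224% and 0.110% of genes changed.

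**Figure D4:**
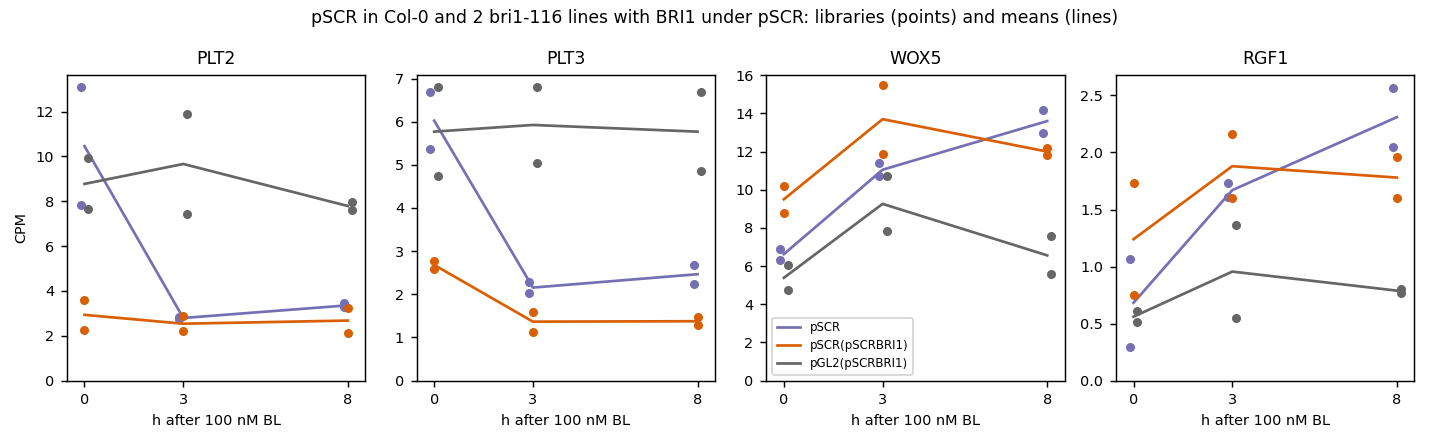
Level in CPM (linear axis from 0) of PLT2, PLT3, WOX5 and RGF1 at 0, 3 and 8 h of BL in pSCR, pSCR(pSCRBRI1) and the libraries labelled pGL2(pSCRBRI1), with libraries as points and means of 2 as lines. PLT2 starts high in pSCR and drops after BL, is low throughout in pSCR(pSCRBRI1) and high throughout in pGL2(pSCRBRI1).

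In pGL2(pGL2BRI1), no member passed against pGL2 before BL, where 11.4% of genes passed. PLT1 stood at 1.37 and 2.93 CPM, PLT2 at 1.60 and 3.09 and PLT3 at 2.01 and 3.09. In all 3 the higher value was in replicate 2, 1 of the 3 libraries with endodermis markers; WOX5 was also higher there, at 1.40 against 0.274 CPM. After 3 h of BL, PLT1 was at -1.40 ± 0.432, PLT2 at -1.23 ± 0.354 and PLT3 at -1.31 ± 0.410, which did not pass by edgeR (adjusted p = 0.0796, 0.0549 and 0.0859). By DESeq2, PLT1 and PLT2 passed (adjusted p = 0.0391 and 0.0384). Over all genes, 2.72% changed at 3 h and 1.39% at 8 h. Without 0 h replicate 1, PLT1, PLT2 and PLT4 passed at 3 h (adjusted p = 0.0397, 0.0257 and 0.0455), with replicate 2, whose endodermis markers stood at 1880 CPM, as the only 0 h library. The test of the difference between these responses and those in pGL2 passed for 0 of the 9 members by edgeR and by DESeq2 (0.0286% of all genes passed at 3 h and 0.00953% at 8 h by edgeR), with PLT2 at -0.34 ± 0.480 at 3 h (95% interval -1.32 to 0.64) and 0.79 ± 0.487 at 8 h (-0.21 to 1.78).

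Across the 24 group means of log2 CPM, WOX5 and RGF1 had the most similar pattern among members (Pearson r = 0.93), followed by PLT2 and PLT3 (0.83), RGF2 and RGF3 (0.81) and PLT4 and WOX5 (0.78). Of 8878 genes with a symbol, those with the highest r to PLT4 were LOG4 (0.969), MNP (0.966), SPT (0.960), EMB1968 (0.954) and MSI1 (0.949). For WOX5 they were TBL19 (0.966), chr31 (0.961), RABA6a (0.959), PUT4 (0.957) and PERK14 (0.951). For PLT1 they were XTH28, bZIP3, VTC5, BLH7 and OSB3, from 0.922 to 0.897. PLT2 had KICP-02 (0.840), PLT3, SEX1, WOX12 and CIB5, and PLT3 had AGL21 (0.880), RTFL15, GYRA, KICP-02 and PLT2. RGF2 was closest to QQS (0.953), CYP71B26, AZI1, GNC and FEZ, a root cap stem cell factor gene (0.888), and RGF3 to ADF9 (0.946), ATL63, PSAK, CDF1 and CEL5, a root cap cellulase gene (0.824). These values describe 24 means that share lines and libraries.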

How the data were processed

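Ribosome-bound mRNA of 48 libraries was sequenced as 50-base single-end reads, and the authors deposited whole-number read counts per gene, which are not normalized. Per the submitters' processing notes, the tools were FastQC 0.10.1, TopHat2 2.0.9, HTSeq 0.5.3p3 and DESeq2 1.2.8 on TAIR10. The library kit named in the labels keeps no strand. Total counts were 20556381 to 37685541 per library.

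From these counts, genes with low counts were removed (filterByExpr), leaving 20995 of 33715, and edgeR 4.0.16 (R 4.3.3) was run with TMM scaling and the robust quasi-likelihood test on all 24 groups, which share 1 estimate of the spread (24 residual degrees of freedom). P-values were BH-adjusted within each of 45 comparisons. RPKM is CPM per kilobase of exon in the entry. All 10 members are named, with at most 4 genes per related list and comparison, those of largest log2 change that passed. For each member with a mean of at least 1 CPM, the 5 genes with a symbol of highest Pearson r over the 24 group means of log2(CPM + 0.5) are named. The members and lists were chosen with earlier results of these data known. The fit was tested on simulated counts. Alternatives were RLE scaling, no filter, a replicate block, a read-note term, libraries with or without that note, the compared groups alone, DESeq2 1.42.0 and leaving out each library, with genes and dispersion trend kept and scaling and quasi-likelihood spread re-estimated. Leaving out the libraries that went against their labels and a replicate block within each line were chosen after seeing the data. The submitters' note on read length is on 21 libraries, including every pSCR and pGL2(pSCRBRI1) library and none of 35S, pBRN2 and pSHR. It does not vary within those 5 lines, so the read-note term rests on the other 3. Between pSCR and 35S, pBRN2 or pSHR, the compared libraries alone cannot tell tissue and note apart. Replicates of a group differed by more than sampling noise (chi-square per degree of freedom 11.8 to 155).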

Additional observations from a re-analysis of the deposited data

How the results depend on the processing

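Among the member results, 5745 kept their side of the threshold under an alternative, 115 were no longer past it and 49 came past it. Direction was compared only for results past the threshold in the main fit or the alternative, and 0 of these reversed. The number of members past the threshold over the BL comparisons of single lines was 8. It became 14 with DESeq2 and 5 with the compared groups alone, the 3 calls in pGL2 and 2 of PLT3 in pSHR (adjusted p = 0.0386 at 3 h and 0.0478 at 8 h). The cause was not tested. Leaving out 1 library gave 16 to 21 calls against 21 for the Col-0 lines against 35S, 31 to 36 against 36 for pairs of lines, 5 to 11 against 8 for BL in single lines, 7 to 11 against 10 for the mean BL change, 7 to 8 against 8 for the complemented lines and 0 to 0 for differences between responses. Without 35S 8 h replicate 1, RGF3 passed in 35S at 8 h (-2.35, adjusted p = 0.00785). Counts over all genes moved too: 35S at 3 h had 65 genes, 0 with the compared groups alone and 206 with DESeq2, pSHR at 3 h had 4, 67 and 24, pGL2(pSCRBRI1) against pSCR had 204, 0 and 444, and pSHR against 35S at 0 h had 5594, 9469 and 6343. AIL7, at 0 to 11 counts per library, was not tested.

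No label says that a replicate number marks a shared batch. Deviations of same-numbered libraries correlated between the times of a line at 0.65 to 0.74 in pSCR and 0.44 to 0.60 in pBRN2. In pSCR(pSCRBRI1) and pGL2(pSCRBRI1) they correlated at 0.49 to 0.59 and 0.40 to 0.52. They ran from -0.75 to 0.24 in 35S and from 0.02 to 0.14 in pSHR. In pGL2 and pGL2(pGL2BRI1) the note on read length changed replicate number between times. Where 2 times had it on the same number, the correlation was 0.37 in pGL2 and 0.74 in pGL2(pGL2BRI1). Where the numbers differed, it was -0.12 and -0.13 in pGL2 and -0.69 and -0.73 in pGL2(pGL2BRI1). The numbers were not taken to pair the samples, and no block by note within a line was fitted. With replicate number as 1 block for all lines the 6 counts of calls, in the order above, were 21, 35, 7, 10, 8 and 0, and the call lost for BL was PLT3 in 35S at 3 h (adjusted p = 0.0507). With a replicate block within each line (16 residual degrees of freedom) they were 22, 37, 13, 10, 8 and 0. At 0 h, PLT2 came past in pSHR against 35S and pGL2 (adjusted p = 0.0219 and 0.0321) and RGF3 in pSCR against pBRN2 (0.0427), and RGF3 in pSHR against pGL2 was lost. The 8 BL calls held there, and 5 were gained, PLT2 and PLT3 in pSHR at 3 h, PLT2 in 35S at 3 h, RGF3 in 35S at 8 h and PLT3 in pBRN2 at 8 h (adjusted p from 0.0338 to 0.0469). In that fit, WOX5 and RGF1 in pSCR at 8 h did not pass (adjusted p = 0.33 for both), nor did the PLT2 response differences between pSCR(pSCRBRI1) and pSCR (adjusted p = 1.00).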
